A study of Arabidopsis thaliana with 27 samples.

Results

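Small heat shock proteins (sHSPs) are described here through 10 Arabidopsis genes, taken by gene identifier from the 33977 genes counted in every RNA-seq library. They are HSP17.4 (AT3G46230), HSP17.6A (AT1G59860), HSP17.6C (AT1G53540), HSP17.6II (AT5G12020), HSP17.7 (AT5G12030), HSP17.8 (AT1G07400), HSP18.1 (AT5G59720), HSP21 (AT4G27670), HSP22 (AT4G10250) and HSP23.6 (AT4G25200). RefSeq names AT5G59720 HSP18.2, AT4G10250 ATHSP22.0 and AT5G12030 HSP17.6A, a symbol used here for AT1G59860. The list was selected on an earlier result of these data, the higher level of HSP17.4 in Epi 8 than in Epi 24 roots. The values, counts and calls of that comparison are therefore a description and no test of the list. The same holds for the root comparisons of Epi 8 and Epi 24 with WT, which share its epi-line libraries.

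The libraries came from Col-0 wild type (WT) and from epi-lines. The epi-lines are F3 families from crosses of Col-0 WT with an msh1 T-DNA mutant, in which the gene for the organelle-targeted DNA-binding protein MSH1 is disrupted, and they carry functional MSH1 again. Epi 8 and Epi 24 came from one cross and Epi 10 from another, so each line is a single family. The 27 libraries were from 27 plants in 9 groups of 3. They comprised floral stem of WT, Epi 8 and Epi 24 at 6 weeks, root of the same lines at 10 days, and rosette leaf of WT, Epi 8 and Epi 10. The labels give leaf as bolting stage, and the methods give an age in weeks. Leaf and floral stem plants grew on peat under a 12 h day at 22 °C, and root plants on sterile medium. No group received heat or any other treatment according to the labels.

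sHSPs are ATP-independent chaperones that hold unfolding proteins in a state from which HSP70 and the disaggregase HSP101 can refold them. In plants their genes are known to be nearly silent in unstressed vegetative tissue and to be switched on by heat shock factors (HSFs), which bind heat shock elements made of inverted GAA units in the promoter. HSP17.4, HSP17.6A, HSP17.6C, HSP17.8 and HSP18.1 encode cytosolic class I proteins, and HSP17.6II and HSP17.7 cytosolic class II proteins. HSP21 works in the chloroplast, HSP22 in the endoplasmic reticulum and HSP23.6 in the mitochondrion.

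The promoters of HSP17.4 and HSP17.6C are shown because they were the ones among the 10 that held a perfect element of 3 units (GAANNTTCNNGAA or TTCNNGAANNTTC), and because both genes take part in the root and floral stem patterns described further on. The stretches are the 250 bases before the annotated start, from the TAIR10.1 genome with RefSeq gene models, at chr3:16984868-16985117 (minus strand) for HSP17.4 and chr1:19980049-19980298 (plus strand) for HSP17.6C. Capitals mark the elements.
HSP17.4: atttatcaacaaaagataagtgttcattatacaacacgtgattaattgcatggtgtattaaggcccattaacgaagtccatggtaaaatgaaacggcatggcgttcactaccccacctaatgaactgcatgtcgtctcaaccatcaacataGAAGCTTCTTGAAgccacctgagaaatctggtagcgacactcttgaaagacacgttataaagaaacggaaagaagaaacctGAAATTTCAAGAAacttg
HSP17.6C: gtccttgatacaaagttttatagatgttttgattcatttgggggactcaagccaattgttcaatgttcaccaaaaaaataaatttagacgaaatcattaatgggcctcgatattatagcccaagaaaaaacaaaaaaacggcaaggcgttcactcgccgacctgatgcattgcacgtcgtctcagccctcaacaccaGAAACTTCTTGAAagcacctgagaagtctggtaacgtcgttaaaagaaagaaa
HSP17.4 held 2 such elements, GAAGCTTCTTGAA beginning 99 bases before the start and GAAATTTCAAGAA beginning 18 bases before it. HSP17.6C held GAAACTTCTTGAA, beginning 53 bases before the start. Within 250 bases before and 50 bases after the start, a perfect 3-unit element was present in 2 of the 10 genes, against 0.481% of 27443 promoters of the same length. The shorter 2-unit forms GAANNTTC or TTCNNGAA, which every 3-unit element also contains, were found on either strand in 6 of 10 genes, against 19.3% of all promoters. Besides HSP17.4 and HSP17.6C these were HSP17.6A, HSP17.7, HSP21 and HSP23.6, whereas HSP17.6II, HSP17.8, HSP18.1 and HSP22 held neither form. Of 17 other heat-induced genes, 4 held a 3-unit element and 10 a 2-unit form. These counts were 3 and 7 of 21 HSF genes, and 0 and 3 of 7 further sHSP genes. Elements with mismatches were not searched, and the presence of a motif is a description of the letters only.

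Libraries of floral stem held 18465252 to 21219383 counts in total, those of root 18524351 to 20041205 and those of leaf 48098795 to 90808615. Scaled to library size as CPM, a count of 3 was worth between 0.1414 and 0.1625 CPM in the floral stems, between 0.1497 and 0.1619 CPM in the roots and between 0.03304 and 0.06237 CPM in the leaves, a floor that covers counting error only. CPM below are scaled by TMM over the 27 libraries. On that scale a count of 3 has another value, such as 0.1343 CPM in Epi 24 root plant 2. MSH1 itself was counted in every library, at 2.061 to 23.57 CPM. The leaf markers RBCS1A, LHCB1.3 and RCA summed to 26710 to 37590 CPM in leaf, 26070 to 42000 CPM in floral stem and 167.6 to 428.7 CPM in root, and the root markers EXPA7, CASP1 and PYK10 to 9881 to 20200 CPM in root and at most 0.5389 CPM elsewhere. The secondary wall genes CESA4, CESA7 and CESA8 summed to 507.3 to 5932 CPM in floral stem and at most 158 CPM elsewhere. The root and secondary wall markers thus followed the labelled organs, whereas the leaf markers separated root from the others but not leaf from floral stem. The labels call the plants biological replicates. In whole organs, fewer cells of a type and less RNA per cell cannot be told apart.

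The sHSP genes had low counts in most libraries, and 1 library stood apart. In WT floral stem plant 2, each of the 10 genes was higher than in all other 8 floral stems. Summed over the 10 genes, this library held 1126 CPM, whereas the other 8 floral stems held 20.44 to 41.41 CPM, roots 12.89 to 48.4 CPM and leaves 1.826 to 3.309 CPM. For comparison, plant 2 held the highest value of the 9 floral stems for 9.53% of the 18291 genes with a mean of at least 1 CPM there. At least 4 times the highest of the other 8 was reached by 0.0601% of those 18291 genes, which is 11 genes, and 6 of the 11 are sHSP genes of the list (HSP17.4, HSP17.6C, HSP17.6II, HSP18.1, HSP21 and HSP22). HSP17.7 and HSP23.6 also reached it but had a mean under 1 CPM. HSP17.4, HSP17.6C, HSP17.6II, HSP21 and HSP22 passed that mean only through plant 2, so of the 6 only HSP18.1 passed it without that plant.

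**Figure D1:**
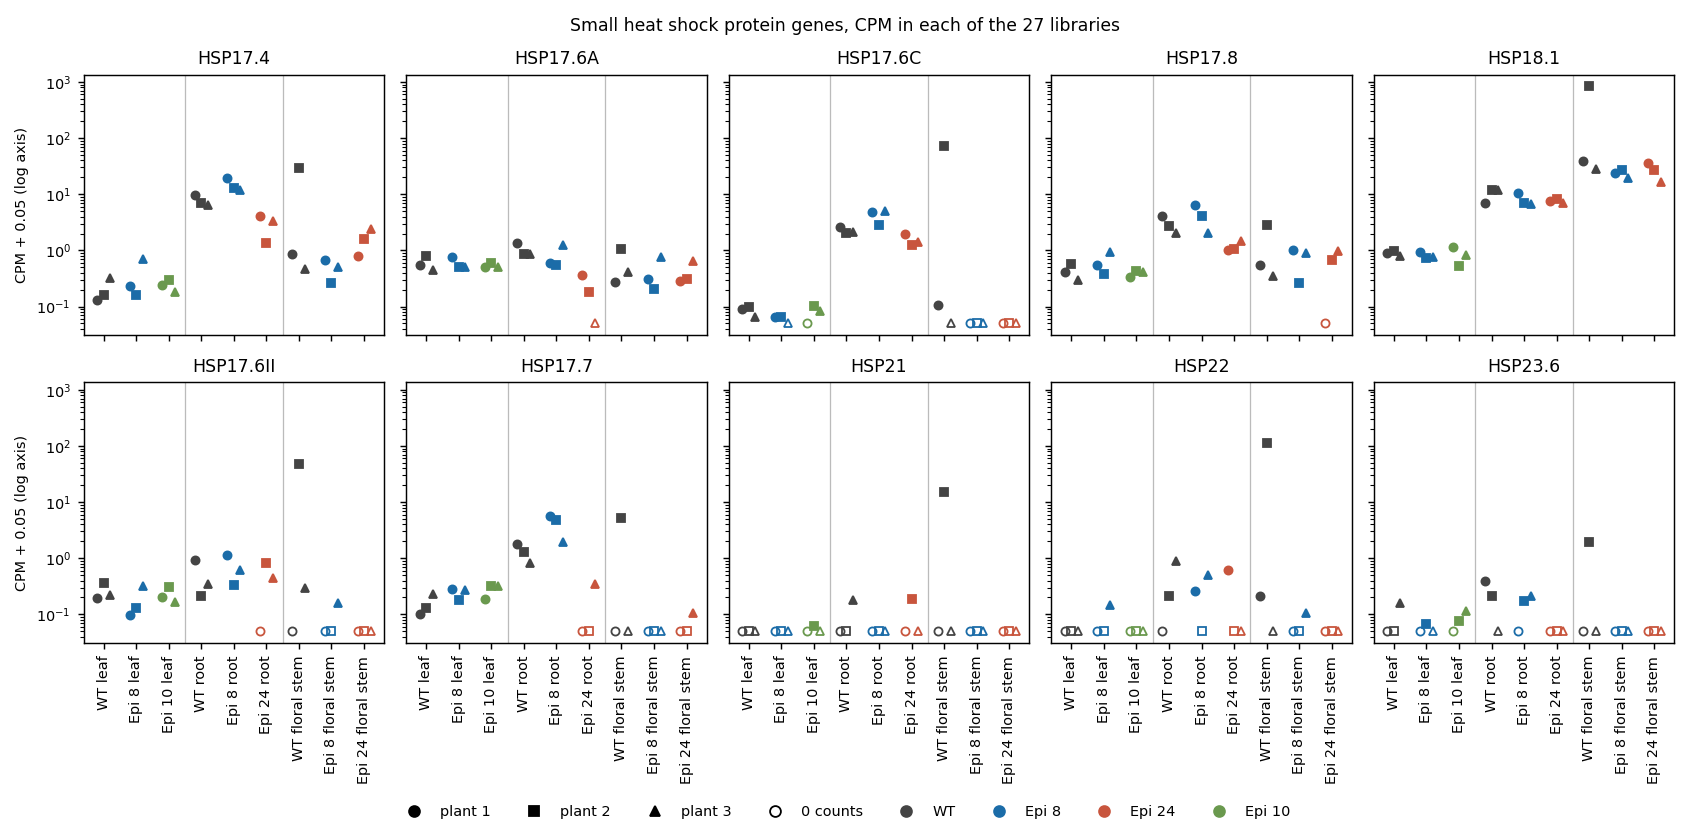
CPM of the 10 sHSP genes in each of the 27 libraries, plus 0.05 and on a log axis, with 1 panel per gene, colours for lines, shapes for plants and open symbols for libraries with 0 counts. The dark grey square of WT floral stem plant 2 lies above all other floral stems in every panel, and its HSP18.1 value is 835.7 CPM.

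Among the cytosolic class I genes, HSP18.1 was the most abundant, with 39.65, 835.7 and 27.92 CPM in the 3 WT floral stems, and 16.52 to 39.65 CPM in the 8 floral stems other than plant 2. In plant 2 (14800 counts) it was 30.9 times the level given by the pooled counts of those 8. HSP17.6C had 1308 counts (73.86 CPM) in plant 2 and 1 count in the other 8 together. The ratio of the 2 was 10760, with a 95% counting interval (exact binomial) of 1927 to 425200. HSP17.4 had 0.8272, 29.59 and 0.4239 CPM in the 3 WT floral stems and 0.2095 to 2.344 CPM in the Epi lines. The difference was smaller for HSP17.8 (2.823 CPM against at most 0.9731) and for HSP17.6A (1.016 CPM against at most 0.7251).

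The class II genes and those for organelles showed the same division. HSP17.6II had 835 counts (47.15 CPM) in plant 2 and 6 counts over the other 8 floral stems. HSP17.7 had 91 counts there and 1 count elsewhere in floral stem, a ratio of 748.3 (95% counting interval 131 to 29880). HSP22 had 2026 counts (114.4 CPM) against 4 counts. The chloroplast gene HSP21 had 262 counts (14.79 CPM) and the mitochondrial gene HSP23.6 had 34 counts (1.92 CPM), and both had 0 counts in the other 8 floral stems. Against a floor of 3 counts over those 8 libraries, HSP21 was at least 718.2-fold higher and HSP23.6 at least 93.2-fold higher in plant 2. HSP21 is the gene for which plant 2 was nearly the whole evidence, since it had 0 to 3 counts in each of the other 26 libraries.

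**Figure D2:**
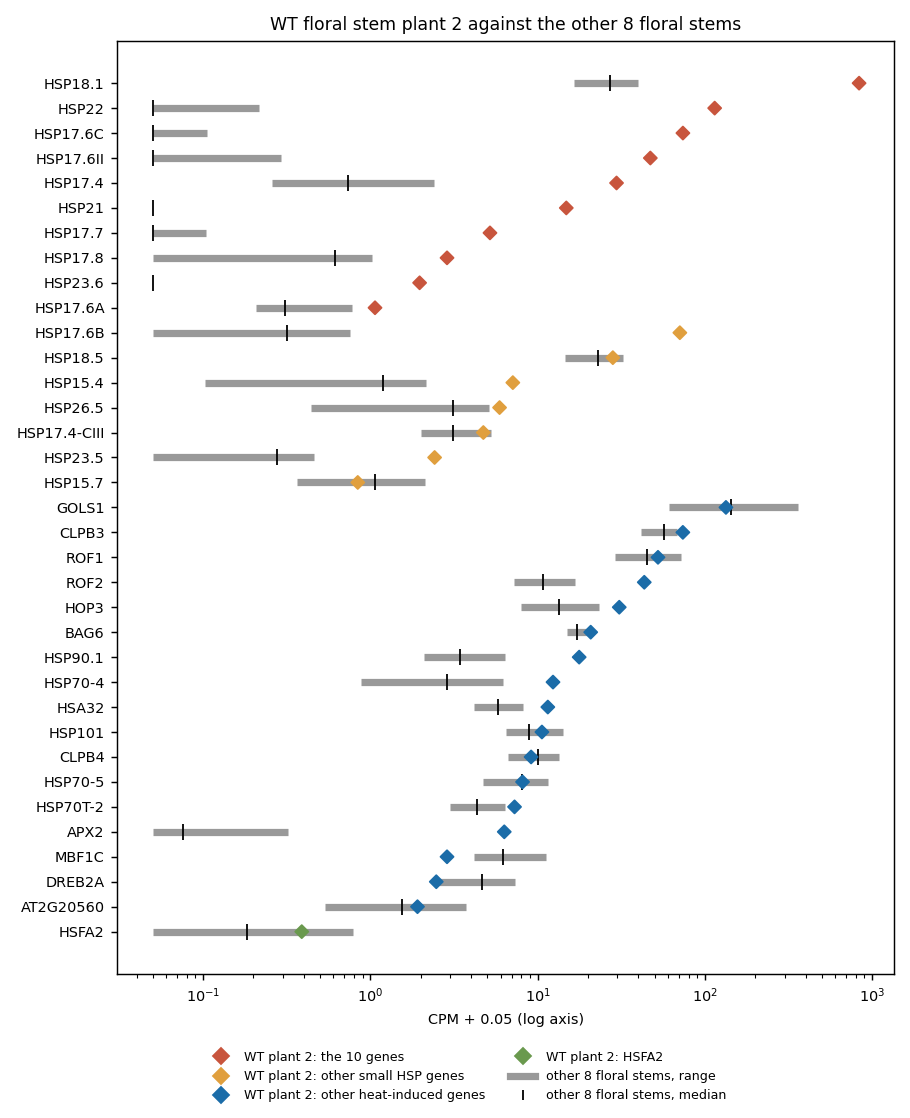
CPM plus 0.05 (log axis) in WT floral stem plant 2 (diamonds) for the 10 sHSP genes, other sHSP genes, other heat-induced genes and HSFA2, with grey bars for the range and ticks for the median of the other 8 floral stems. All 10 sHSP genes and HSP17.6B lie to the right of their bars, whereas HSP101 and HSFA2 lie within theirs and MBF1C and DREB2A to the left.

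Other heat-related genes were uneven in this library. Of 7 further sHSP genes, 4 were higher in plant 2 than in the other 8 floral stems. HSP17.6B (AT2G29500), another cytosolic class I gene, had 70.81 CPM against at most 0.7087 CPM, and the mitochondrial HSP23.5 had 2.372 CPM against at most 0.4097. Of 17 other heat-induced genes, 9 were highest in plant 2. They included the ascorbate peroxidase gene APX2 (6.268 CPM against at most 0.2726), the cytosolic HSP90 gene HSP90.1 (17.67 against at most 6.3) and the co-chaperone gene ROF2 (43.37 against at most 16.65). The excess was small for CLPB3 (73.81 CPM against at most 68.02) and BAG6 (20.72 against at most 20.71). In the other direction, MBF1C (2.823 CPM, others 4.136 to 11.18) and DREB2A (2.428 CPM, others 2.537 to 7.251) were lower in plant 2 than in all other 8 floral stems. HSP101 (10.56 CPM, others 6.409 to 14.14) and the heat shock factor gene HSFA2 (0.3388 CPM, others 0 to 0.7398), both strongly heat-induced genes, lay within the range of the other floral stems. Of 21 HSF genes 2 were highest in plant 2, of 12 constitutive chaperone genes 2, and of 12 genes of protein folding in the endoplasmic reticulum 0. The summed leaf (38120 CPM), stem (2060 CPM) and flower markers (3.896 CPM) of plant 2 were inside the range of the 9 floral stems, and seed markers and root markers had 0 counts in it. What set plant 2 apart was not tested.

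The question of the line comparisons was whether sHSP transcripts differ between each epi-line and WT, and between the sister lines Epi 8 and Epi 24. A gene was called differentially expressed (DEG) when edgeR's quasi-likelihood test on the 9 libraries of an organ gave an FDR below 0.05, adjusted across every gene tested, together with a log2FC of 0.5 or more in either direction. In root, 8 of 10 sHSP genes passed the filter on low counts, and HSP21 and HSP23.6 did not. None of the 8 was called between either epi-line and WT. Over all genes 0% of 20787 were called by edgeR in each of these 2 comparisons, and DESeq2 called 28 genes in Epi 8 and 22 in Epi 24. Among the 8 sHSP genes, DESeq2 called HSP17.7 lower in Epi 24 (log2FC -3.66, FDR 0.02293) and 0 in Epi 8. At an unadjusted edgeR p under 0.05 stood 3 of the 8 in Epi 8 (5.6% of all genes) and 4 of the 8 in Epi 24 (6.91%). Both comparisons share their epi-line libraries with the one that led to the choice of the genes. Their counts and calls are therefore a description and no test of the list.

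Several cytosolic sHSP genes had an ordered set of levels in root, lowest in Epi 24, intermediate in WT and highest in Epi 8. The difference between its ends, Epi 8 and Epi 24, led to the choice of the genes, so the order is a description only. HSP17.4 had 4.014, 1.298 and 3.271 CPM in the 3 Epi 24 roots, 9.712, 6.86 and 6.442 CPM in WT and 19.22, 12.77 and 11.71 CPM in Epi 8. All 3 groups were separate, with every Epi 24 plant below and every Epi 8 plant above WT. Its log2FC to WT was -1.42 ± 0.34 (SE, n = 3 against 3, edgeR FDR 0.58) in Epi 24 and 0.90 ± 0.32 (FDR 0.8421) in Epi 8. These comparisons with WT share their epi-line libraries with the one that led to the choice of the genes.

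HSP17.7, a class II gene, spanned the widest fold range. It had 0, 0 and 0.3013 CPM in Epi 24 roots (0, 0 and 7 counts, near the floor), 1.727, 1.258 and 0.7731 CPM in WT and 5.638, 4.695 and 1.87 CPM in Epi 8. The groups again did not overlap, although the lowest Epi 8 plant was close to the highest WT plant. The log2FC was -3.59 ± 0.92 (edgeR FDR 0.61) for Epi 24 and 1.67 ± 0.71 (FDR 0.8751) for Epi 8 against WT.

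HSP17.6C had 1.927, 1.209 and 1.334 CPM in Epi 24, 2.59, 2.029 and 2.105 CPM in WT and 4.815, 2.759 and 5.042 CPM in Epi 8. It too was separate in all 3 groups, with a log2FC to WT of -0.59 ± 0.40 (edgeR FDR 0.7994) in Epi 24 and 0.88 ± 0.38 (FDR 0.8796) in Epi 8. HSP17.4 and HSP17.6C are near copies, 84.706% identical over 510 bases, but only uniquely mapped reads were counted.

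For HSP17.8 and HSP17.6A, Epi 24 alone stood off. HSP17.8 had 0.9633, 1.03 and 1.42 CPM in Epi 24, 4.058, 2.638 and 1.976 CPM in WT and 6.379, 4.077 and 2.033 CPM in Epi 8, so Epi 8 and WT overlapped. HSP17.6A had 0.3211, 0.1343 and 0 CPM in Epi 24 (8, 3 and 0 counts, near the floor), 1.295, 0.8118 and 0.816 CPM in WT and 0.535, 0.4942 and 1.22 CPM in Epi 8, and here too the overlap was between Epi 8 and WT. Their log2FC in Epi 24 was -1.35 ± 0.47 and -2.63 ± 1.01 (edgeR FDR 0.6731 for both). These 2 genes are 87.914% identical over 513 bases.

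**Figure D3:**
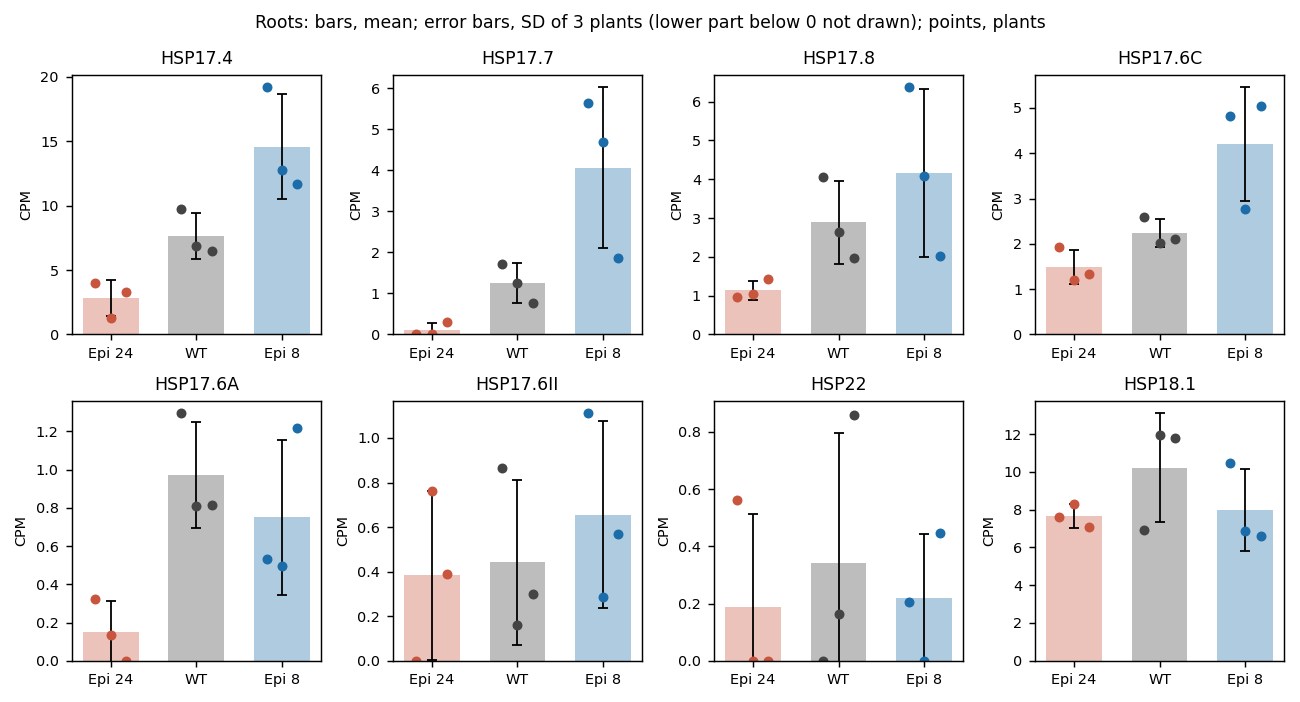
CPM of the 8 sHSP genes tested in root, with bars for the mean of 3 plants, error bars for the SD and points for the plants, for Epi 24, WT and Epi 8 on linear axes. The points of HSP17.4, HSP17.7 and HSP17.6C do not overlap between the 3 lines, and those of HSP18.1 do.

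The remaining root values showed no such order. HSP18.1, the class I gene with the highest level in WT root together with HSP17.4, had 7.626, 8.326 and 7.058 CPM in Epi 24, 6.907, 11.97 and 11.81 CPM in WT and 10.49, 6.878 and 6.628 CPM in Epi 8, and the lines overlapped. HSP17.6II (0 to 1.111 CPM) and HSP22 (0 to 0.859 CPM) overlapped between all lines. HSP21 had 3 counts in WT root plant 3 and in Epi 24 root plant 2 and 0 in the other roots, and HSP23.6 reached 0.3453 CPM in WT root plant 1.

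Over the 8 genes tested, the groups did not overlap for 3 genes in Epi 8 against WT (higher), where 8.1% of all tested genes were non-overlapping and higher, and for 5 genes in Epi 24 against WT (lower), where 5.02% were. The median log2FC of the 8 was 0.52 for Epi 8 and -1.09 for Epi 24, and that of all tested genes 0.00 in both. Both comparisons use epi-line libraries on which the list was chosen. Their counts and medians are thus a description and no test either. In Epi 8 against Epi 24, the comparison that led to the choice, the median was 1.67. There 5 of 8 genes were non-overlapping and higher (9.45% of all tested genes). HSP17.4, 1 of 8, was called higher (0.00481% of all tested genes, beside 0.0144% called lower and 0.0192% in either direction). The list was chosen on this difference, so these counts are a description and no test of it. The call of HSP17.4 was lost with the replicate block, with only the 6 libraries compared and when any one of the 6 plants was left out. DESeq2 gave no adjusted p for any of the 8 genes in this comparison. The log2FC was 2.33 for HSP17.4, 5.27 for HSP17.7, 1.86 for HSP17.8, 1.48 for HSP17.6C, 2.23 for HSP17.6A, 0.77 for HSP17.6II, 0.17 for HSP22 and 0.05 for HSP18.1.

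A limit applies to HSP17.4. On the opposite strand, AT3G07365, annotated as a long noncoding RNA, shares 453 of the 750 bases of the gene, and AT3G46220 shares 60. The strand setting of the counting is not given in the sources used here, and the library kit does not mark strand, so reads from the shared bases cannot be assigned. AT3G07365 had 0 to 0.04476 CPM in Epi 24 roots, 0.3653 to 0.5583 in WT roots and 0.122 to 1.442 in Epi 8 roots. AT3G46220 had 30.64 to 37.96, 35.43 to 39.8 and 33.15 to 36.39 CPM in the same groups.

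The other heat-related genes of the root gave 0 DEGs by edgeR in these 3 comparisons. Of the further sHSP genes 7 of 7 were tested, of the HSF genes 18 of 21, of the other heat-induced genes 17 of 17, of the constitutive chaperones 12 of 12 and of the folding genes of the endoplasmic reticulum 12 of 12. HSP17.6B had 31.27, 21.58 and 25.18 CPM in Epi 24, 28.96, 32.43 and 25 CPM in WT and 40.21, 32.62 and 29.15 CPM in Epi 8, with log2FC to WT of -0.15 and 0.22. HSP101 had log2FC of -0.26 ± 0.29 (SE) in Epi 24 and 0.24 ± 0.29 in Epi 8. HSFA2 was at most 1.079 CPM in root, and its log2FC of -0.27 ± 1.18 and 0.55 ± 1.15 had wide errors. The summed secondary wall genes were 96.77 to 158 CPM in Epi 24 roots, 77.48 to 105.9 in WT roots and 65.95 to 85.69 in Epi 8 roots, where neighbouring groups overlapped and Epi 24 and Epi 8 did not, and the part of this list in the sHSP values was not tested.

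In floral stem, 4 of 10 sHSP genes passed the filter (HSP17.4, HSP17.6A, HSP17.8 and HSP18.1), and 0 of them were called. Over all genes 0.0255% of 19594 were called in Epi 8 against WT, 0% in Epi 24 against WT and 0.0153% in Epi 8 against Epi 24. Without WT plant 2 these shares were 0.00501% of 19943 genes for Epi 8 and 0% for Epi 24 against WT, again with 0 sHSP genes called, and DESeq2 called 0 of the 4 there. With plant 2, DESeq2 gave no adjusted p for HSP17.4 and HSP18.1 against WT and called neither of the other 2. At an unadjusted edgeR p under 0.05 stood 2 of the 4 in Epi 8 (8.82% of all genes), 1 in Epi 24 (6.11%) and 0 between the epi-lines (16.8%). The values with and without WT plant 2 differed in size and in part in sign. For HSP17.4, Epi 8 had 0.6146, 0.2095 and 0.4462 CPM and Epi 24 had 0.7575, 1.533 and 2.344 CPM, beside the WT values given above. Its log2FC in Epi 8 against WT was -4.55 ± 1.45 (edgeR FDR 0.3697), and -0.56 ± 0.74 (FDR 0.8821) without plant 2. In Epi 24 it was -2.71 ± 1.29 (FDR 0.8199), and 1.28 ± 0.74 (FDR 0.9996) without plant 2.

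HSP18.1 had 23.46, 27.23 and 19.24 CPM in Epi 8 and 36.13, 27.11 and 16.52 CPM in Epi 24. Epi 8 did not overlap with WT, although its highest plant was just below the lowest WT plant at 27.92 CPM. Groups that did not overlap, with Epi 8 lower, made up 6.76% of all tested genes. The log2FC was -3.65 ± 1.13 (edgeR FDR 0.3473) in Epi 8 and -3.49 ± 1.12 (FDR 0.8069) in Epi 24. Without plant 2 it was -0.53 ± 0.32 (FDR 0.721) and -0.36 ± 0.32 (FDR 0.9996).

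HSP17.6A and HSP17.8 had log2FC of -0.47 ± 0.82 and -0.82 ± 1.11 in Epi 8 and -0.53 ± 0.82 and -1.18 ± 1.13 in Epi 24 against WT, and all 4 values were above 0 without plant 2. The median of the 4 genes was -2.23 in Epi 8 and -1.94 in Epi 24 against WT, and -0.08 and 0.34 without plant 2, beside 0.01 and 0.00 for all tested genes. Between the epi-lines, which do not involve WT, HSP17.4 was lower in every Epi 8 plant than in every Epi 24 plant (log2FC -1.84 ± 1.40, edgeR FDR 0.5046), as 14.3% of all tested genes were. This is the reverse of their order in root. The summed secondary wall genes did not overlap between these groups either, at 507.3 to 1664 CPM in Epi 8 and 3682 to 4296 CPM in Epi 24 floral stem, and their part in the HSP17.4 difference was not tested. The other 3 sHSP genes overlapped. HSP101 had log2FC of 0.15 ± 0.28 in Epi 8 and -0.25 ± 0.28 in Epi 24 against WT, and HSFA2 and HSP17.6B did not pass the filter in floral stem.

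**Figure D4:**
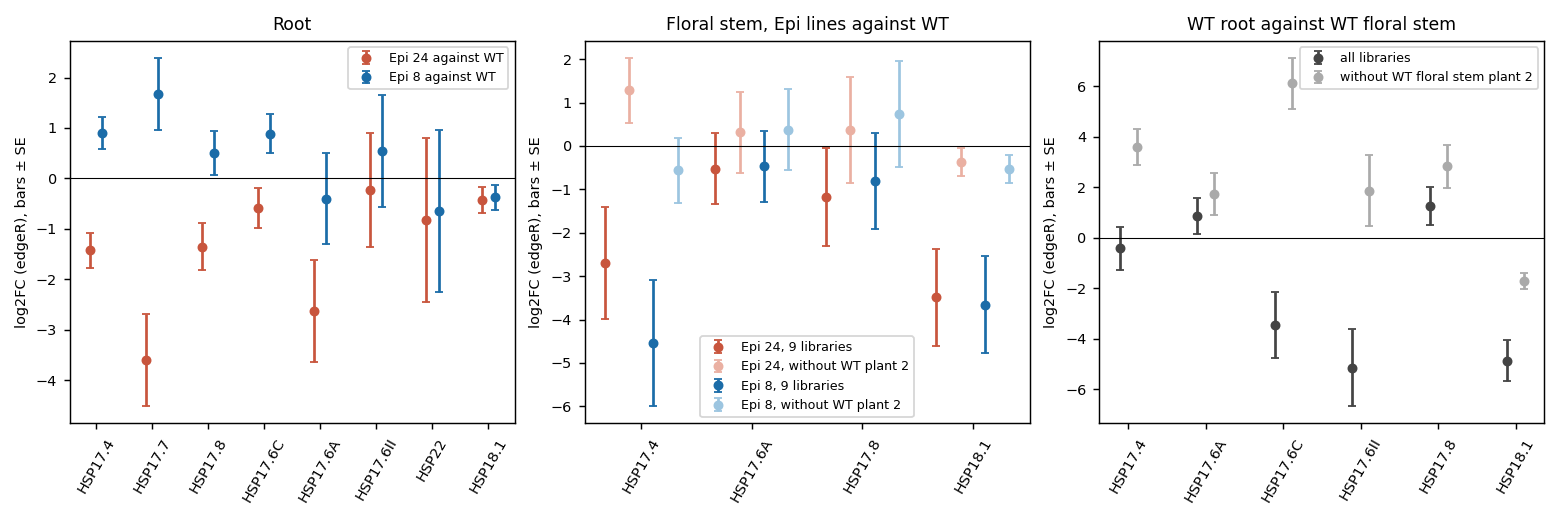
log2FC with bars of ± SE from edgeR for Epi 24 and Epi 8 against WT in root (left), in floral stem with all 9 libraries and without WT plant 2 (middle), and for WT root against WT floral stem with and without that plant (right, without HSP17.7 and HSP22). In the middle panel HSP18.1 in Epi 8 moves from -3.65 to -0.53, and in the right panel HSP17.6C moves from -3.46 to 6.12.

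In leaf none of the 10 genes exceeded 1.099 CPM in any library, with 30 to 65 counts per library for HSP18.1, 19 to 48 for HSP17.6A and 16 to 37 for HSP17.8. HSP18.1, the highest, had 0.849, 0.9425 and 0.7391 CPM in WT, 0.8678, 0.6887 and 0.7247 CPM in Epi 8 and 1.099, 0.4786 and 0.763 CPM in Epi 10. HSP17.4 had 0.07836 to 0.2772 CPM in WT, 0.1121 to 0.6522 CPM in Epi 8 and 0.1299 to 0.2458 CPM in Epi 10. The groups overlapped for all 10 genes in the 3 leaf comparisons. Of the 6 genes tested, 0 were called in Epi 8 against WT by edgeR (0.953% of 20052 genes, with 0.18% higher and 0.773% lower), Epi 10 against WT (0%) or Epi 8 against Epi 10 (0%). DESeq2 called 0 of the 6 in Epi 10 against WT and did not call HSP18.1 in Epi 8 against WT, and gave no adjusted p for the other 5 there or for any of the 6 between the epi-lines. By edgeR 0 had an unadjusted p under 0.05 (20.3%, 7.03% and 7.08% of all genes). The log2FC of the largest size against WT were 0.97 ± 0.73 for HSP17.4 in Epi 8 (edgeR FDR 0.4788) and 1.13 ± 0.59 for HSP17.7 in Epi 10 (FDR 0.6926). The medians of the 6 genes were 0.28, -0.13 and 0.07. The other log2FC of the 6 genes against WT lay between -0.74 ± 0.68 (HSP17.6II in Epi 8) and 0.86 ± 0.61 (HSP17.7 in Epi 8). HSP21 had 1 count in a single leaf library, HSP22 was above 0 in 1 of 9, and HSP17.6C and HSP23.6 reached at most 4 and 7 counts. HSP17.6B had log2FC of 0.09 ± 0.28 in Epi 8 and -0.25 ± 0.28 in Epi 10 against WT, HSFA2 0.37 ± 0.18 and -0.06 ± 0.18, and HSP101 0.05 ± 0.15 and 0.01 ± 0.15.

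Organs of WT were compared on the 27 libraries to place these levels. The organs also differed in age, and partly in growth medium and depth, so organ cannot be told apart from these. Against root, 5 of 8 tested genes were lower in leaf (35.9% of 22442 genes were) and 0 higher (32.7%), where 68.5% of all genes were called in either direction. HSP17.4 was lower by a log2FC of -5.62 ± 1.10 (edgeR FDR 8.452e-05), HSP17.6C by -5.91 ± 1.73 (FDR 0.004909), HSP18.1 by -3.60 ± 0.83 (FDR 0.0004965), HSP17.7 by -3.55 ± 1.28 (FDR 0.01711) and HSP17.8 by -2.92 ± 0.78 (FDR 0.002004). Without WT leaf plant 1 or plant 2 the FDR of HSP17.7 was 0.06509 and 0.057, and 4 genes were called. HSP22 had 0 counts in WT leaf and 24 in WT root, so its log2 ratio was -4.54 or lower with a floor of 3 counts over the 3 leaf libraries. The median log2FC of the 8 genes was -3.57, also with HSP22 at this bound, and -0.05 for all tested genes.

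The comparison of WT root with WT floral stem turned on plant 2. With it, HSP17.6C (-3.46 ± 1.32, edgeR FDR 0.02777), HSP17.6II (-5.16 ± 1.52, FDR 0.005389), HSP18.1 (-4.88 ± 0.82, FDR 1.759e-05) and HSP22 (-6.80 ± 1.98, FDR 0.006092) were lower in root (4 of 8, against 32.2% of all genes), and 0 were higher (28.7%), with 60.9% of all genes called in either direction. Without plant 2, 4 of 8 were higher in root (27.4% of all genes) and 1 was lower (30.9%). HSP17.4 was higher by 3.60 ± 0.71 (FDR 0.0001691), HSP17.6C by 6.12 ± 1.00 (FDR 3.989e-05) and HSP17.8 by 2.84 ± 0.86 (FDR 0.006796). HSP17.6C had 159 counts in WT root and 1 in WT floral stem plants 1 and 3 together, a ratio of 77.48 with a 95% counting interval of 13.71 to 3079. HSP17.7 had 89 counts in WT root and 0 in WT floral stem plants 1 and 3, a log2 ratio of at least 3.85 with a floor of 3 counts over both libraries. HSP18.1 alone remained lower in root, by -1.72 ± 0.31 (FDR 5.721e-05). The median of the 8 genes went from -1.96 to 2.40.

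Leaf against floral stem gave 6 of 8 genes lower in leaf with plant 2 (31.2% of all genes, beside 29.1% higher and 60.3% in either direction) and 2 without it (29.7%). These 2 were HSP18.1 (-8.47 ± 0.97 with plant 2, -5.31 ± 0.35 without it, FDR 6.641e-11) and HSP17.4 (-6.04 ± 1.11 and -2.01 ± 0.73, FDR 0.02111). The median went from -6.14 to 0.07. HSP18.1 was thus ordered leaf, root, floral stem in both fits, with all 3 WT groups separate. Per kb of exon, it had a mean of 0.863 CPM per kb in WT leaf and 10.5 in WT root, beside 10.6 for HSP17.4 in WT root and 0.213 in WT leaf. The HSP17.4 values use its full exon length, although reads from the bases shared with the opposite strand cannot be assigned.

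The further heat-related lists were compared between WT leaf and WT root, a contrast that holds no floral stem library. Of the 12 constitutive chaperones, 10 were higher and 0 lower in WT leaf than in WT root, opposite in direction to the called sHSP genes, where 32.7% of all tested genes were higher and 35.9% lower. The largest log2FC of the list were those of the plastid HSP70 gene CPHSC70-2 (3.53), HSC70-3 (2.92) and the plastid HSP90 gene HSP90.5 (2.80). HSFA2 was higher in leaf than in root (3.12 ± 0.81, edgeR FDR 0.001587) and HSP101 as well (0.85 ± 0.26, FDR 0.00626), whereas HSP17.6B was lower (-3.73 ± 1.02, FDR 0.002331). Of the 18 HSF genes tested (of 21), 7 were higher and 7 lower in leaf than in root, of the 17 other heat-induced genes 3 and 6, of the 7 further sHSP genes 2 and 4, and of the 12 genes of folding in the endoplasmic reticulum 1 and 4.

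Whether the effect of a line differed between organs was tested as an interaction in the 27 libraries. Of the 8 genes tested, 0 were called for Epi 8 in floral stem against root by edgeR (0.316% of 22442 genes, with 0.0936% higher and 0.223% lower), in leaf against root (0%) or in leaf against floral stem (0.29%, with 0.241% higher and 0.049% lower), and 0 for Epi 24 in floral stem against root (0%). At an unadjusted edgeR p under 0.05 stood 6, 0, 4 and 4 of the 8, beside 10.5%, 8.05%, 12.4% and 8.76% of all genes. DESeq2 called HSP17.4 and HSP17.7 in the first and HSP17.4 and HSP18.1 in the third of these interactions and 0 in the others, and gave no adjusted p for 3, 3, 5 and 3 of the 8. Without WT floral stem plant 2, DESeq2 called 0 genes in the first and the third, with no adjusted p for 3 and 5 of the 8. For HSP17.4 the difference between the floral stem and root effects was -5.51 ± 1.38 (edgeR FDR 0.08297) in Epi 8 and -1.31 ± 1.27 (FDR 0.8375) in Epi 24. Without plant 2 these were -1.49 ± 0.90 (FDR 0.6032) and 2.71 ± 0.87 (FDR 0.4888). For HSP18.1 it was -3.34 ± 1.03 in Epi 8 and -3.09 ± 1.03 in Epi 24, and -0.18 ± 0.42 and 0.07 ± 0.42 without plant 2. For HSP17.8 it was -1.37 ± 1.08 and 0.14 ± 1.13, and 0.22 ± 1.04 and 1.73 ± 1.09 without plant 2. For HSP17.6A it was -0.12 ± 1.00 and 2.10 ± 1.08, and 0.75 ± 1.09 and 2.97 ± 1.15 without plant 2. HSP17.6C, HSP17.6II, HSP17.7 and HSP22 had at most 6 counts over the 8 floral stems other than plant 2, so the size of their fitted values depends on the prior count. With plant 2 included, HSP17.6B had -7.28 ± 1.72 (edgeR FDR 0.06434) and -5.79 ± 1.58 (FDR 0.2642), HSFA2 -2.84 ± 1.55 and 0.45 ± 1.32, and HSP101 -0.13 ± 0.38 and 0.00 ± 0.38.

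Finally, the genes whose pattern was most like that of the sHSP genes were ranked by Pearson's r over the 27 libraries, of log2 CPM centred within each organ, with the mean of the 8 tested sHSP genes. They were HSP17.6B (r = 0.92), PMSR4 (0.85), ATGSTF13 (0.85), MIR5642a (0.83) and SPP1 (0.82) among 19767 genes. Without WT floral stem plant 2, the highest were AT1G01670 (0.84), IRT2 (0.81), AT1G52730 (0.77), NRPB6A (0.76) and GRX4 (0.73), none of which was among the first list. The points of an organ share depth and processing, and r is given as a description.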

How the data were processed

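RNA-seq data of 27 plants in 9 groups of line and organ were used, grouped by the sample labels. After TrimGalore trimming, the authors mapped reads to TAIR10 (STAR 2.7.3a, unique alignments), counted them per gene with QoRTs and deposited these counts unnormalized. Lines summarising uncounted reads (0.9401 to 7.106% of the total) were left out. Of 33977 gene identifiers, 32548 matched the TAIR10.1 RefSeq annotation, which gave names, positions and promoters. Near copies were found with blastn 2.17.0.

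Each organ (9 libraries), and all 27 libraries for organs and interactions, were fitted with edgeR 4.0.16 in R 4.3.3 (filterByExpr by group, TMM, quasi-likelihood F-test, Benjamini-Hochberg). SE is the absolute log2FC over the root of F. The steps were tested on simulated data. Plants of a group differed beyond sampling noise (chi-square over degrees of freedom 13.61 to 106.2). Alternatives were RLE scaling, DESeq2 1.42.0, no filter, only the groups compared, the plant number as a block, each plant left out, no fold limit and CPM by library size alone. Python 3.11.15 with pandas 2.3.3 and scipy 1.17.1 was used. Leaving out WT floral stem plant 2 was among the alternatives, and its combinations with no filter or with DESeq2 were added after seeing the data.

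The 10 genes and the lists of other heat-related genes were chosen with earlier results of these data known. All 10 genes were examined in every comparison, and those with too few counts are given by their counts. Of the other lists, HSFA2, HSP101 and HSP17.6B were named in each line comparison with WT and in leaf against root, together with genes that were called in a line comparison or had the largest log2FC between organs, and the genes named for WT floral stem plant 2 were picked after their values were seen.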

Additional observations from a re-analysis of the deposited data

How the results depend on the processing

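The 0 calls among the sHSP genes in the comparisons with WT were kept under all alternatives that gave a value, except that DESeq2 called 1 gene (HSP17.7) lower in Epi 24 root. An adjusted p that DESeq2 did not give is not counted as a lost call. The single higher call in Epi 8 against Epi 24 root, the comparison that led to the choice, became 2 with no filter. It became 0 with only the 6 libraries compared and with the replicate block, and DESeq2 gave no adjusted p for any of the 8 genes. Leaving out each plant gave 0 to 1 calls. HSP17.4 lost its call in all 6 of these fits, and the 1 call, without Epi 24 plant 3, was that of HSP17.7.

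In WT root against floral stem the 4 genes lower in root became 2 with the replicate block and 1 with only the groups compared, and 1 to 4 with each plant left out, with 0 to 4 higher. DESeq2 called HSP18.1 and gave no adjusted p for the other 3. With only the groups compared, HSP17.6C lost its call (edgeR FDR 0.1547), whereas HSP17.6II and HSP22 did not pass the filter on low counts. In leaf against floral stem the 6 lower genes became 7 with no filter and 2 to 7 with each plant left out. With only the groups compared 2 of the 6 were called, and the rest did not pass the filter on low counts. DESeq2 called 4, among them HSP17.8, and gave no adjusted p for 3 of the 8. In leaf against root the 5 lower genes became 4 with DESeq2, which gave HSP17.6C no adjusted p, and 4 to 5 with each plant left out. DESeq2 called 2 lower and 2 higher genes for the Epi 8 effect in floral stem against root and in leaf against floral stem. Without WT floral stem plant 2, DESeq2 called 0 in both. With edgeR, leaving out a plant gave 0 to 5 and 0 to 4. For the Epi 24 effect it gave 0 to 3. Those calls arose when WT floral stem plant 1 or 3 was left out, which leaves plant 2 with more weight.

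For genes whose direction reversed, leaving out each plant in turn moved the log2FC of leaf against floral stem from -9.945 to 0.2168 (HSP17.6C), -6.816 to 0.7945 (HSP17.6II) and -4.656 to 4.942 (HSP17.7). That of root against floral stem moved from -0.9869 to 3.599 (HSP17.4), -4.042 to 6.123 (HSP17.6C), -6.077 to 1.869 (HSP17.6II), -1.039 to 8.485 (HSP17.7) and -8.783 to 1.957 (HSP22). Each upper value is that without WT floral stem plant 2.

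Without that plant and with no filter, leaf against floral stem gave 0.232, 0.8038 and 4.947 for HSP17.6C, HSP17.6II and HSP17.7, and DESeq2 gave 0.243, 0.8068 and 3.302. Root against floral stem gave 3.604, 6.126, 1.867, 8.478 and 1.972 for HSP17.4, HSP17.6C, HSP17.6II, HSP17.7 and HSP22 with no filter, and 3.731, 6.401, 2.017, 7.002 and 2.159 with DESeq2. In these 2 added settings 4 (no filter) and 5 (DESeq2) genes were higher in root and 1 lower in both, and 2 were lower in leaf in both. HSP17.7 had 0 counts in the remaining WT floral stems, so the size of its values depends on the prior count.

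The plant numbers did not pair the plants, and the replicate block changed no other call. Over all genes, DESeq2 called 358, 21 and 704 genes in the 3 floral stem comparisons (edgeR 5, 0 and 3), 28, 22 and 139 in root (0, 0 and 4), and 712, 21 and 56 in leaf (191, 0 and 0).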
